A study of Mus musculus with 6 samples.

Results

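The Schlafen (Slfn) genes form a rodent-expanded family whose proteins share an N-terminal Slfn core. The 6 members described here, Slfn1, Slfn2, Slfn3, Slfn5, Slfn8 and Slfn9, were listed by name as genes linked to T-cell quiescence and interferon, and were found by symbol among 25655 gene identifiers. All 6 were measured and all 6 entered the test across 10590 genes. Their RNA was compared in cultured splenic CD8 T cells labelled Utx KO and WT, with 3 biological replicates per genotype (6 libraries). Utx is the histone H3K27 demethylase encoded by the X-linked gene Kdm6a.

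Both groups came from female C57BL/6 mice. Naive cells were activated by immobilized antibodies to the T-cell receptor beta chain (3 µg/ml) and CD28 (1 µg/ml) with interleukin 2 (10 ng/ml) for 2 days, and then kept in interleukin 2 for 3 days, so every library is from day 5. The labels do not state which part of Utx is deleted, in which cells, or whether each replicate is a mouse of its own. The p-values therefore cover only sample-to-sample spread, which may be technical. Values are CPM, the reads of a gene scaled to a fixed library total. Reads come from the 3' end of transcripts and not from their whole length, so CPM was ranked between genes without division by length.

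Schlafen proteins come in short, intermediate and long forms. The short forms Slfn1 and Slfn2 are known from mouse T cells as restraints on growth: Slfn1 slows the cell cycle when overexpressed, and a mutation of Slfn2 (elektra) makes naive T cells lose quiescence and die upon activation. The long forms Slfn5, Slfn8 and Slfn9 add a helicase-like region to the core, and several family members are induced by interferon. In the GENCODE M21 annotation the longest coding lengths were 1011 nt for Slfn1, 1134 nt for Slfn2, 1920 nt for Slfn3, 2652 nt for Slfn5, and 2730 nt for each of Slfn8 and Slfn9. Slfn8 and Slfn9 are near copies, with 92.7% identical bases over 2730 aligned coding bases, whereas Slfn5 matched Slfn8 at 64.6% of aligned bases and Slfn1 matched Slfn2 at 71.7%.

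The start regions were searched for short motifs chosen with the expression results known, so where they fall is a description of the sequence and bears on no change in expression. Windows from 250 bases before to 50 bases after each RefSeq start (GRCm38.p6) were searched for the core of the interferon-stimulated response element (GAAA, any 2 bases, GAAA, or TTTC, any 2 bases, TTTC on the other strand, with overlaps counted once per window). It occurred at 1 position in each of Slfn5, Slfn8 and Slfn9, in no window of Slfn1, Slfn2 or Slfn3, and in 3.44% of 32851 windows of all genes. The gamma-activated site (TTCNNNGAA) occurred in none of the 6 genes' windows and in 8.30% of all windows. An ETS-type element (ACTTCCTGG, or CCAGGAAGT on the other strand), chosen after these sequences had been seen, occurred once in each of Slfn1, Slfn2 and Slfn3, in none of the windows of Slfn5, Slfn8 and Slfn9, and in 0.843% of all windows. Slfn4 also held the ETS-type element, and the long form Slfn14 held none of these motifs. The stretches of 80 bases around each match are shown so that the start regions of the near copies Slfn8 and Slfn9 can be set beside each other and beside those of the other members. Each is written on the strand of its gene. Capitals mark the interferon element core in the long members and the ETS-type element in the other members.
Slfn8, chr11:83020814-83020893, minus strand: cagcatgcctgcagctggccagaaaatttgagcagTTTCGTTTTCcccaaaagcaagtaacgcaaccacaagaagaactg
Slfn9, chr11:82991831-82991910, minus strand: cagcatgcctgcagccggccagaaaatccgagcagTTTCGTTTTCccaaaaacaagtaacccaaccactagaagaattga
Slfn5, chr11:82951912-82951991, plus strand: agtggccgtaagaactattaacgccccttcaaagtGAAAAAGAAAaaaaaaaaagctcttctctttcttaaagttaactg
Slfn2, chr11:83065021-83065100, plus strand: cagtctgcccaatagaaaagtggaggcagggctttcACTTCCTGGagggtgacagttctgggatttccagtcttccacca
Slfn1, chr11:83116710-83116789, plus strand: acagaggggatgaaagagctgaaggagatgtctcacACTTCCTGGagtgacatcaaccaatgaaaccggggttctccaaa
Slfn3, chr11:83191252-83191331, plus strand: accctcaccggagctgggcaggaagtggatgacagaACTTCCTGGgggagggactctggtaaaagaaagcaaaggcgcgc

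The interferon element core began 48 bases before the nearest start of Slfn8, 45 bases before that of Slfn9 and 155 bases before that of Slfn5, whose RefSeq start lies inside the longer GENCODE span of the gene. Slfn8 and Slfn9 had the same 10 bases there, and their windows were 84.9% identical over 292 aligned bases. The ETS-type element began 55 bases before the start of Slfn2, 74 bases before that of Slfn1 and 42 bases before that of Slfn3. These matches describe the sequence and do not show that a factor binds there.

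Recovered totals were 1619085 to 2517655 reads in the Utx KO libraries and 1827703 to 2529113 reads in the WT libraries, and 3 reads, the upper limit for a gene with no read, equal 1.19 to 1.85 CPM depending on the library. Kdm6a was at 27.8, 39.4 and 31.5 CPM in Utx KO libraries 1, 2 and 3, against 44.3, 49.3 and 53.6 CPM in WT libraries 1, 2 and 3. Its limma adjusted p of 0.0123 became 0.0985 with DESeq2, 0.0528 without WT replicate 2, 0.0708 without WT replicate 3 and 0.0554 without Utx KO replicate 1. In the main fit Kdm6a was called lower (log2 fold change −0.57). Since the deleted part is not stated, it is unknown whether the 3' tag lies in it, and a tag outside it would not check the deletion. Markers of CD8 T cells were abundant: Cd8a was at 292 ± 11.8 CPM in Utx KO and 257 ± 15.6 CPM in WT (SD, n = 3), and the 8 markers listed summed to 2081 to 2140 CPM in Utx KO and 1833 to 1946 CPM in WT, although Trac was listed at 0 in all 6 libraries. Of 7 tested CD8 markers 4 rose (Cd3d, Cd3e, Cd8b1 and Cd5) and 1 fell (Cd2), where 5.28% of all tested genes were called higher and 5.51% lower.

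Other cell types left few reads. The 7 B cell markers summed to 0.571 to 1.99 CPM in Utx KO and 2.76 to 5.47 CPM in WT, with Cd79a, Ms4a1, Pax5 and Cd22 at 0 in all libraries. The 6 dendritic cell markers summed to 1.99 to 5.56 CPM in Utx KO and 6.45 to 11.9 CPM in WT, with Flt3, Siglech and Clec9a at 0. Both sums were lower in every Utx KO library than in any WT library. The 10 myeloid and granulocyte markers reached at most 3.71 CPM in Utx KO and 3.69 CPM in WT, with 9 of the 10 at 0 throughout, and the 5 natural killer markers at most 2.47 CPM in Utx KO and 1.09 CPM in WT. The 4 markers of other T cells summed to 6.79 to 7.996 CPM in Utx KO and 7.37 to 10.4 CPM in WT, with Cd4 and Trdc at 0. Because Trac was also at 0 in these CD8 T cells, the value of Trdc cannot tell whether cells expressing it were absent. The part of the markers of other cell types in the results below was not tested.

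Of the 6 Schlafen members, 1 fell in Utx KO cells, the long form Slfn8, whose mean was 0.445 of the WT mean. None rose, and the other 5 did not pass the test. Slfn5, the other long form with non-overlapping groups, lay near the detection limit and passed the filter on low values only through the WT libraries. The short forms Slfn1 and Slfn2, which supplied most Schlafen reads, had nearly equal means in both genotypes. Among all 10590 tested genes, 5.51% were called lower, 5.28% higher and 10.8% in either direction, so 1 of 6 is a count too small to set apart from this background. The median log2 fold change was −0.19 over the 6 members and 0.01 over all tested genes. No member lies near −0.19, which falls in the gap between Slfn9 (−0.39) and Slfn2 (0.01). The median also counts Slfn5, whose direction the filter fixed, so it does not show a shift of the family.

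In GRCm38, Slfn8 (ENSMUSG00000035208) spans 83002158 to 83020810 on the minus strand of chromosome 11. It reached 11.9, 10.9 and 10.5 CPM in Utx KO libraries 1, 2 and 3, against 24.1, 22.1 and 28.5 CPM in WT libraries 1, 2 and 3. Every Utx KO library was below every WT library, and the gap between the groups was wider than the range within either. The means were 11.1 ± 0.737 CPM in Utx KO and 24.9 ± 3.24 CPM in WT (SD, n = 3). On the log2(CPM + 1) scale the fold change was −1.09 (SE 0.20, 95% interval −1.52 to −0.67, limma adjusted p = 0.000621). The values rest on 66 pooled reads in Utx KO and 161 in WT, which puts Utx KO at 0.454 of WT per library total (exact 95% interval 0.336 to 0.609, counting error only). The call held in all 14 alternatives run on Slfn8 alone. In bulk RNA, fewer cells expressing a gene and less RNA per cell cannot be told apart.

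Slfn9 (ENSMUSG00000069793, chromosome 11, 82978390 to 82991830) was at 21.8, 18.8 and 13.6 CPM in Utx KO libraries 1, 2 and 3, against 28.9, 27.6 and 16.4 CPM in WT libraries 1, 2 and 3. WT replicate 3 was the low one of its group and fell within the Utx KO range, so the groups overlap. The fitted change was −0.39 log2 units (SE 0.22), with a limma adjusted p of 0.316 and a 95% interval that reaches from −0.85 to 0.07. Single libraries set its size: it was −0.21 without Utx KO replicate 3, −0.25 without WT replicate 1 and −0.64 without WT replicate 3, and was called in none of these. In the shared 3' end the near copies are not fully separable: 23.8% of the 50-nt pieces from the last 300 nt of Slfn8 transcripts, and 21.4% of those of Slfn9, also occur in the other gene or in the pseudogene Slfn10-ps, which was not analysed here. Treatment of reads with several matches is not given in the sources used here.

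When Slfn8 and Slfn9 were summed, so that reads exchanged between them no longer matter, the total was 33.8, 29.7 and 24.1 CPM in Utx KO libraries 1, 2 and 3, against 53.0, 49.8 and 44.9 CPM in WT libraries 1, 2 and 3. The groups did not overlap, and the log2 fold change of the sum was −0.74 (limma adjusted p = 0.00140). Slfn8 gave 0.545, 0.576 and 0.773 reads per Slfn9 read in Utx KO libraries 1, 2 and 3, against 0.836, 0.800 and 1.73 in WT. Each Utx KO ratio was below each WT ratio, but the highest Utx KO value, 0.773, was close to the lowest WT value, 0.800, and the difference was not tested.

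Slfn5 (ENSMUSG00000054404, chromosome 11, 82951349 to 82964840) was at 0.794, 0.571 and 0.618 CPM in Utx KO libraries 1, 2 and 3, or 2, 1 and 1 reads. In WT libraries 1, 2 and 3 it was at 1.98, 2.76 and 3.83 CPM, or 5, 6 and 7 reads. All Utx KO values lie under the 3-read limit of their libraries, and Slfn5 passed the filter on low values only through the 3 WT libraries. Its log2 fold change of −1.19 (SE 0.43, 95% interval −2.07 to −0.31) had a limma adjusted p of 0.0792. From 4 pooled reads in Utx KO and 18 in WT, Utx KO stood at 0.246 of WT (exact 95% interval 0.0606 to 0.748), an interval that covers counting error only and not the spread between libraries. Without the filter on low values the adjusted p was 0.0333, while DESeq2 gave 0.426. The fold change ran from −2.08 to −0.47 over the 12 alternatives that tested it. An antisense gene, Slfn5os, overlaps exons of Slfn5 on the opposite strand, and whether counting used strand is not stated.

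Slfn2 (ENSMUSG00000072620, chromosome 11, 83065112 to 83070678), the quiescence factor altered in elektra mice, was the most abundant member in both genotypes. It was at 147, 127 and 106 CPM in Utx KO libraries 1, 2 and 3, against 127, 121 and 127 CPM in WT libraries 1, 2 and 3. The Utx KO values spread on both sides of the tight WT range. The fitted change was 0.01 log2 units (SE 0.10), with a limma adjusted p of 0.978, and its 95% interval of −0.20 to 0.21 covers fold changes from 0.872 to 1.16.

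Slfn1 (ENSMUSG00000078763, chromosome 11, 83116849 to 83122670), the other short form, was at 79.0, 78.8 and 74.1 CPM in Utx KO libraries 1, 2 and 3, against 87.8, 72.3 and 70.0 CPM in WT libraries 1, 2 and 3. Here the WT libraries enclosed all Utx KO values. The fitted change was 0.02 log2 units (SE 0.11), with a limma adjusted p of 0.956 and a 95% interval of −0.21 to 0.24, or fold changes from 0.866 to 1.18. Slfn3 (ENSMUSG00000018986, chromosome 11, 83191330 to 83215154), an intermediate form, was at 17.1, 26.8 and 18.5 CPM in Utx KO, against 22.5, 18.9 and 17.5 CPM in WT. Its groups overlapped, and the fitted change was 0.06 log2 units (SE 0.20, 95% interval −0.36 to 0.48, limma adjusted p = 0.912). For Slfn3, 11.3% of the 3' end pieces also occur in Slfn4, a family member known from myeloid cells.

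**Figure D1:**
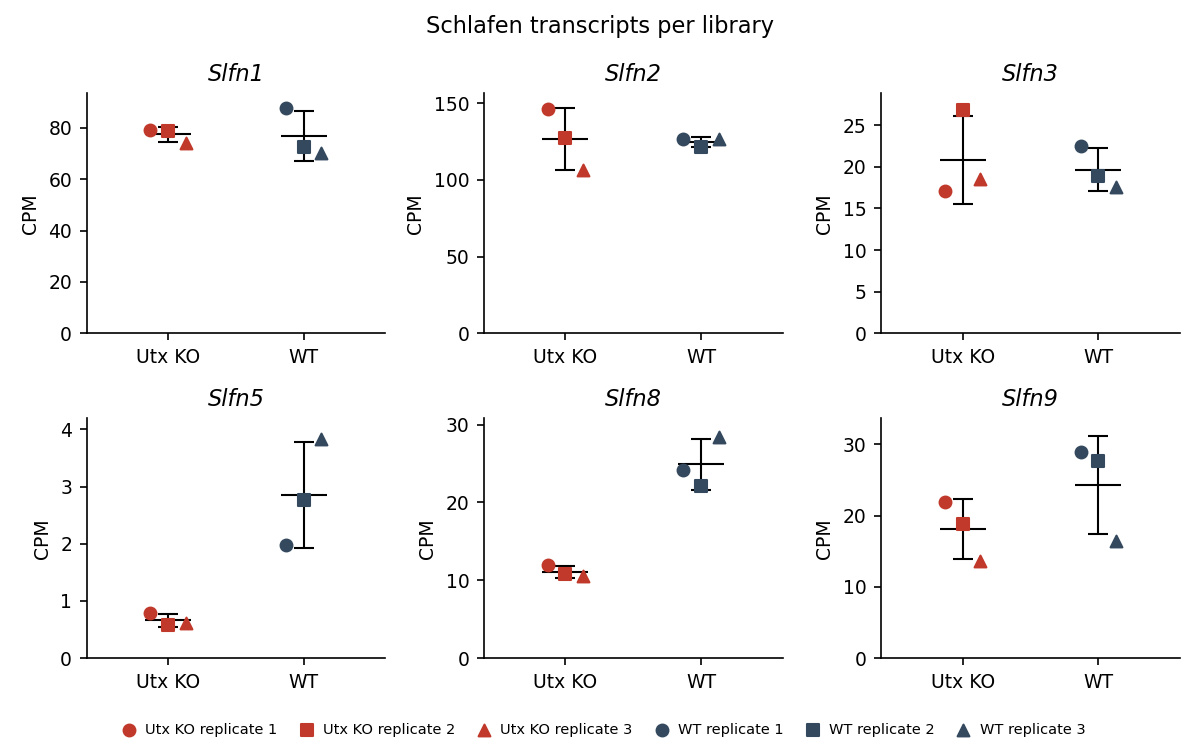
CPM (y axis, from 0, scale differs by panel) of each Schlafen member in 3 Utx KO and 3 WT libraries; points are libraries and bars are the mean ± SD. The 3 Utx KO points of Slfn8, at 10.5 to 11.9 CPM, sit below the WT points at 22.1 to 28.5 CPM. The groups also separate for Slfn5, which passed the filter on low values only through WT, and overlap for Slfn1, Slfn2, Slfn3 and Slfn9.

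Groups did not overlap for 2 of the 6 members, Slfn5 and Slfn8, against 26.5% of all tested genes. Slfn5 passed the filter on low values only through the WT libraries, so its separation was fixed beforehand and adds nothing to this count. Slfn4, Slfn14 (a platelet-linked long form) and the distant relative Slfnl1 were listed at 0 reads in all 6 libraries. Pooled over each group, that allows up to 0.510 CPM in Utx KO and 0.460 CPM in WT. For Slfn4, which shares 3' end pieces with Slfn3, this limit assumes that its reads were neither dropped nor given to Slfn3.

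Slfn2 and Slfn1 led and Slfn5 came last in both genotypes, while the means of Slfn3, Slfn9 and Slfn8 stood in opposite orders. In Utx KO libraries the means ran from Slfn2 (127 CPM) and Slfn1 (77.3 CPM) to Slfn3 (20.8 CPM), Slfn9 (18.1 CPM), Slfn8 (11.1 CPM) and Slfn5 (0.661 CPM), and only the neighbours Slfn3 and Slfn9 overlapped in range. In WT libraries Slfn2 (125 CPM) and Slfn1 (76.7 CPM) were followed by Slfn8 (24.9 CPM), Slfn9 (24.3 CPM), Slfn3 (19.6 CPM) and Slfn5 (2.86 CPM). There, Slfn8 overlapped Slfn9, and Slfn9 overlapped Slfn3. The lowest WT value of Slfn8, 22.1 CPM, was also under the highest of Slfn3, 22.5 CPM, so the WT order of Slfn8, Slfn9 and Slfn3 is not resolved. Slfn2 lay above 86.0% of the tested genes in Utx KO and 85.7% in WT, and Slfn8 above 31.8% in Utx KO and 50.9% in WT.

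Together the 6 members held 277, 263 and 224 CPM in Utx KO libraries 1, 2 and 3, against 292, 265 and 263 CPM in WT libraries 1, 2 and 3. The ranges overlap, with means of 255 ± 27.8 CPM in Utx KO and 273 ± 16.3 CPM in WT (SD, n = 3). Within that total, Slfn8 made up 4.30%, 4.12% and 4.70% of Schlafen reads in Utx KO libraries 1, 2 and 3, against 8.25%, 8.35% and 10.8% in WT libraries 1, 2 and 3. The Wilson 95% interval reached up to 7.39% in Utx KO replicate 3 and down to 6.35% in WT replicate 2, so single libraries overlap within counting error although the groups do not. Slfn2 supplied 47.5% to 52.9% of the reads in Utx KO and 43.4% to 48.2% in WT, and Slfn1 28.5% to 33.1% in Utx KO and 26.6% to 30.0% in WT.

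**Figure D2:**
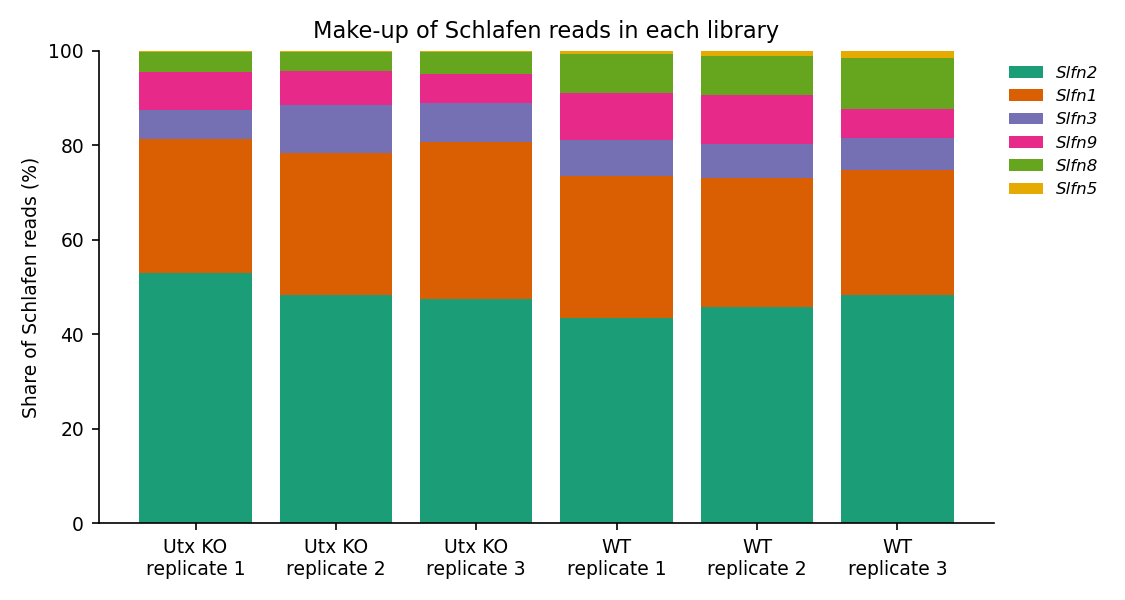
Share of Schlafen reads (y axis, %) taken by each of the 6 members in each library (x axis). The Slfn8 segment spans 4.12% to 4.70% in the Utx KO libraries and 8.25% to 10.8% in the WT libraries, while Slfn2 and Slfn1 are the largest segments in every library.

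The 6 genes lie in 1 cluster of 344 kb on chromosome 11 (82942341 to 83286726 in GRCm38), in the order Slfn5, Slfn9, Slfn8, Slfn2, Slfn1 and Slfn3. Slfn8, the member that fell, lies between Slfn9 and Slfn2, neither of which passed the test. Among 11 other tested genes within 500 kb of the cluster, 0 rose and 1 fell, a count near the background of 5.51% lower among all tested genes, and the median log2 fold change was −0.04. The gene that fell was Ccl5, a chemokine of activated CD8 T cells, at 4.77, 1.71 and 1.24 CPM in Utx KO libraries 1, 2 and 3, against 15.4, 12.4 and 9.30 CPM in WT libraries 1, 2 and 3 (log2 fold change −2.01, SE 0.36, limma adjusted p = 0.000351). With a pseudocount of 5 its change was −1.21 and still called. Utx KO libraries 1, 2 and 3 held 12, 3 and 2 Ccl5 reads, so libraries 2 and 3 lay at or under the 3-read limit and the size of the fall is uncertain.

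**Figure D3:**
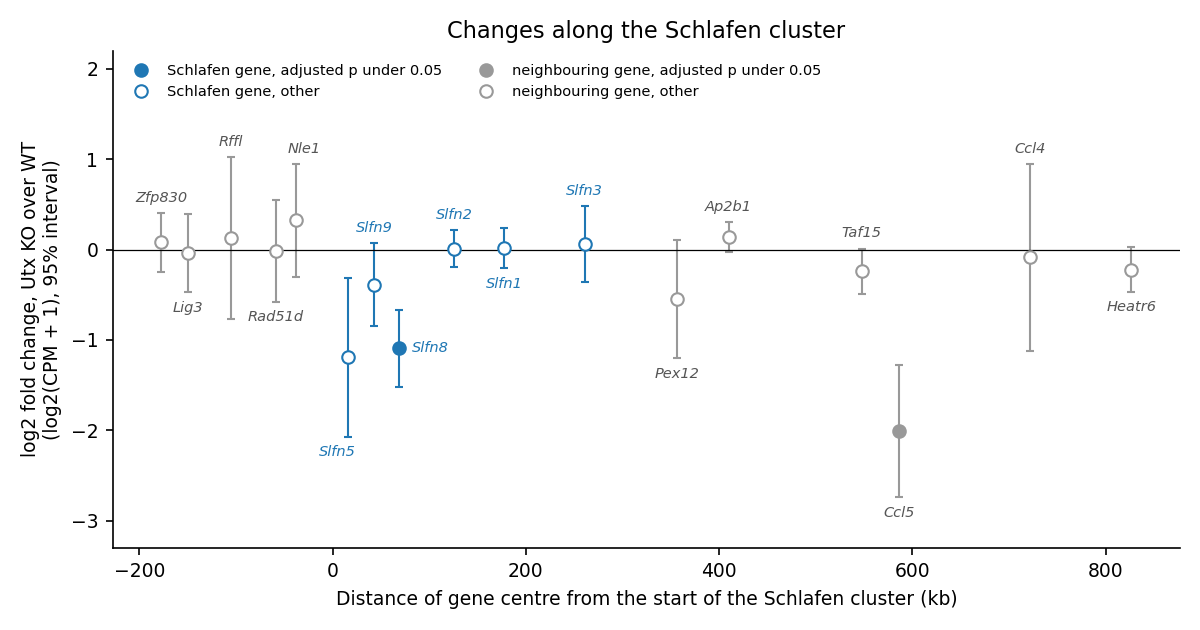
Log2 fold change on the log2(CPM + 1) scale, Utx KO over WT, with its 95% interval (y axis) for tested genes by the distance of the gene's centre from the start of the Schlafen cluster (x axis, kb). Filled points have an adjusted p under 0.05: Slfn8 at −1.09 and Ccl5 at −2.01. Slfn2, Slfn1 and Slfn3 sit at 0.01 to 0.06.

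Antiviral genes induced by interferon, a class that includes several Schlafen genes, were lower more often than higher. Of 37 listed genes 31 were tested, of which 11 fell, 0 rose and 20 did not pass. Among all tested genes 5.51% were called lower and 5.28% higher. The list had a median log2 fold change of −0.35 against 0.01 for all tested genes. It was chosen with earlier results of these data known, so its count and median are description and not independent support. With DESeq2 and the other alternatives 8 to 11 fell and 0 rose. Isg20, an exonuclease of viral RNA, fell to 24.8 ± 1.75 CPM in Utx KO, against 85.8 ± 2.70 CPM in WT (SD, n = 3), a change of −1.75 log2 units with a limma adjusted p of 4.08e-10. Zbp1, a sensor of unusual nucleic acids, fell to 21.7 ± 2.46 CPM in Utx KO, against 52.2 ± 5.18 CPM in WT (−1.23, limma adjusted p = 3.62e-06). Samhd1, which depletes nucleotides needed by viruses, fell to 224 ± 0.962 CPM in Utx KO, against 302 ± 22.7 CPM in WT (−0.43, limma adjusted p = 0.000105). The summed CPM of the list was 1305 to 1380 in Utx KO and 1699 to 1757 in WT. The small sums of B cell and dendritic cell markers were also lower in every Utx KO library than in any WT library. Those sums were mostly Cd79b and Zbtb46, neither of which was called, and the part of such cells in the antiviral values was not tested.

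Receptors and signalling proteins of the interferon pathway were mostly not called. Of 16 tested genes 1 rose and 2 fell, a count too small to set apart from the 10.8% called among all tested genes, with a median log2 fold change of −0.12, against 0.01 for all tested genes. The kinase Jak1 was at 549 ± 19.0 CPM in Utx KO and 643 ± 23.1 CPM in WT (SD, n = 3; −0.23, limma adjusted p = 0.00463). The receptor chain Ifnar2 was at 138 ± 1.14 CPM in Utx KO and 106 ± 6.09 CPM in WT (0.37, limma adjusted p = 0.00488), but 23.9% of its 3' end pieces also occur in the gene model Gm21970 and DESeq2 gave an adjusted p of 0.0533. Irf7, an interferon-induced transcription factor, was at 5.16 ± 1.73 CPM in Utx KO and 11.1 ± 3.70 CPM in WT (−0.96, limma adjusted p = 0.0467). That call was lost in 8 of 14 alternatives, with an adjusted p of 0.0501 in edgeR and 0.292 in DESeq2. Leaving out a library lost it without Utx KO replicate 2 (limma adjusted p = 0.150), Utx KO replicate 3 (0.118), WT replicate 1 (0.123) or WT replicate 3 (0.228).

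Regulators that keep T cells quiescent, the other setting named for these Schlafen genes, were higher more often than lower. Of 17 tested genes of 18 listed, 8 rose and 1 fell, where 5.28% of all tested genes were called higher and 5.51% lower. The median log2 fold change was 0.22, against 0.01 for all tested genes. This list was likewise chosen with earlier results of these data known, so its count and median are description and not independent support. The count that rose was 5 with DESeq2, 5 without Utx KO replicate 2 and 5 without WT replicate 2. Klf2, a transcription factor of resting T cells, was at 95.8 ± 3.37 CPM in Utx KO and 43.4 ± 0.670 CPM in WT (SD, n = 3; 1.12, limma adjusted p = 7.88e-08). Bach2, a repressor that limits effector genes, was at 131 ± 17.6 CPM in Utx KO and 61.8 ± 9.50 CPM in WT (1.07, limma adjusted p = 5.99e-07), and the transcription factor Ets1 at 345 ± 22.9 CPM in Utx KO and 272 ± 10.99 CPM in WT (0.34, limma adjusted p = 0.000919). The gene that fell was Foxo1, at 90.2 ± 11.1 CPM in Utx KO and 115 ± 4.17 CPM in WT (−0.36, limma adjusted p = 0.02). No gene of the list was called lower with DESeq2, or without Utx KO replicate 1, Utx KO replicate 2, WT replicate 1 or WT replicate 3. Summed CPM of CD8 T cell markers was also higher in each Utx KO library than in any WT library (given above). Slfn1 and Slfn2, the members linked to quiescence, were at 0.02 and 0.01 on the same scale.

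**Figure D4:**
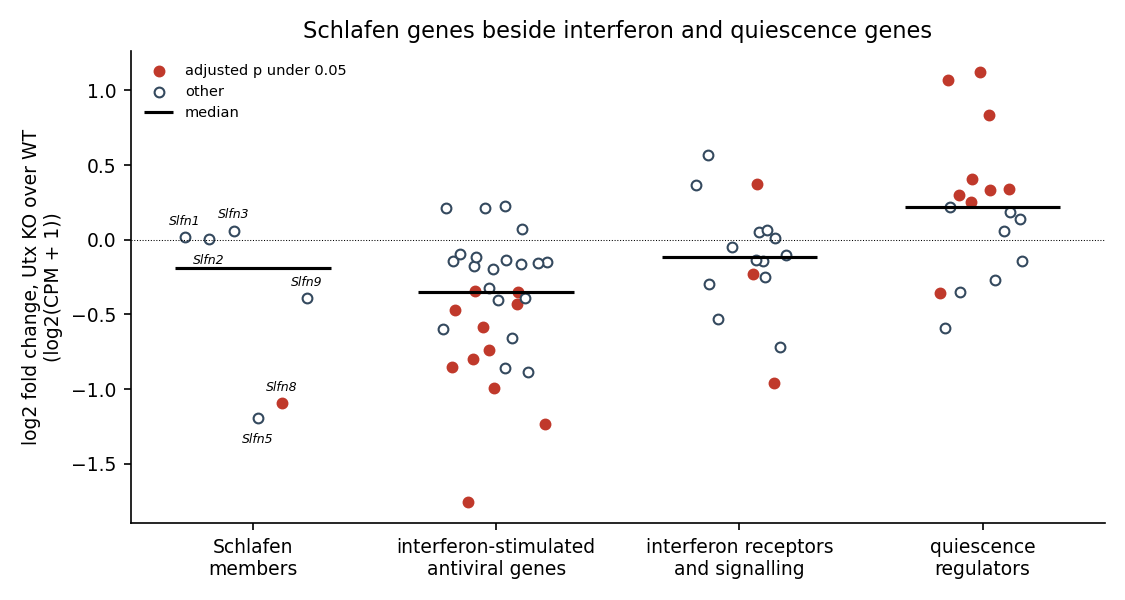
Log2 fold change on the log2(CPM + 1) scale, Utx KO over WT (y axis), of each tested gene in 4 groups (x axis, points spread sideways for legibility); filled points have an adjusted p under 0.05 and lines are medians. The medians are −0.19 for the Schlafen members, −0.35 for antiviral genes, −0.12 for interferon receptors and signalling and 0.22 for quiescence regulators. No Schlafen member lies near −0.19, which falls between Slfn9 and Slfn2 and counts Slfn5, whose direction the filter on low values fixed.

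Likeness to a member was measured as the root mean square distance between centred log2(CPM + 1) profiles over the 6 libraries, among 7299 other genes with a mean of at least 10 CPM. The genes closest to Slfn8 were Ifitm1 (0.0983), Rps15a (0.0993) and Plac8 (0.111), against a median distance of 0.577, and 39.5% of the 3' end pieces of Rps15a also occur in other genes, mostly its pseudogenes. These 3 fell in Utx KO by 1.18, 1.06 and 1.09 on the log2 scale. A fall near that of Slfn8 follows from choosing them by likeness over the same libraries. The closest to Slfn9 were Cdc16, Acsl1 and Elmo2 (0.126 to 0.132, median 0.401). Slfn2 lay closest to Herpud1, Clpp and Sdf2l1 (0.0306 to 0.0392, median 0.214). Slfn1 lay closest to Nsrp1, Wac and Aven (0.0237 to 0.0322, median 0.194), and Slfn3 to Ubr1, Med13 and Ahcyl2 (0.0694 to 0.0744, median 0.270). No Schlafen gene was among the 3 closest to another. Slfn5 was under the cut-off of 10 CPM, and 3 of 7299 genes is too short a list to tell whether members vary together.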

How the data were processed

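The authors deposited 1 table per library with CPM values for Ensembl genes, with 1 fixed column total, per the file headers. Builds named in the submitters' processing notes are GRCm38 and mm10. The aligner, the counter, strand handling and any filter: not given in the sources used here. Libraries were made with a 3' mRNA kit from 500 ng of total RNA, per the labels' protocols. Dividing by the value of 1 read gave whole reads for 100% of values above 0 (tolerance 0.001 reads). These reads served the count tests, which are alternatives only. Symbols were found for 25600 of 25655 identifiers.

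The test was limma-trend (limma 3.58.1, R 4.3.3) on log2(CPM + 1), which understates changes of low genes, over genes with at least 1 CPM in 3 libraries. P-values were two-sided and Benjamini-Hochberg adjusted over all tested genes, with a threshold of 0.05. Alternatives were edgeR 4.0.16 and DESeq2 1.42.0 on the recovered reads, other pseudocounts, filters and scaling, a replicate block and leaving out each library. Limma, edgeR and DESeq2 were tested on simulated data. The simulation gave every gene the same dispersion and changed no gene as low as Slfn5, so it does not cover such genes. Members and lists were chosen with earlier results of these data known. Named genes were the members, Kdm6a, called neighbours, the 3 of lowest adjusted p in each pathway list and the 3 closest in profile. Foxo1 and the single cell-type markers were named after their values were seen. Promoter windows are RefSeq's, matched for 9 Schlafen genes.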

Additional observations from a re-analysis of the deposited data

How the results depend on the processing

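Over 14 alternatives set out for every result, the direction of Slfn8 and Slfn9 was the same each time. Slfn8 was called each time (limma, edgeR or DESeq2 adjusted p 0.000288 to 0.00940, log2 fold change −1.17 to −0.89). The direction of Slfn5 was also the same wherever it was tested, but it passed the filter on low values only through the WT libraries. Under that filter its direction was fixed beforehand. Slfn5 was not tested under edgeR's filter or the filter of 5 CPM. The signs of Slfn1, Slfn2 and Slfn3 matched the reported ones in 12, 11 and 12 of 14 alternatives, and none was called in any. Summing Slfn8 and Slfn9, an alternative chosen after seeing the data, gave −0.74. The count of members called lower was 1, and 2 with no filter on low values, where Slfn5 was called as well; none was called higher in any alternative.

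Of all tested genes 1142 were called, against 551 with DESeq2 and 754 to 1042 when a library was left out, the lowest without WT replicate 2. The replicate numbers did not pair the libraries: deviations of same-numbered libraries correlated at −0.01 to 0.01, and no library correlated best with its own number. With the replicate block 1065 genes were called, and the Slfn8 adjusted p was 0.00139. Depth limits Slfn5 most, at 1 to 7 reads per library.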
